A study of Mus musculus with 4 samples.

Results

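Platelets and the megakaryocytes that shed them are marked by a set of transcripts, not all of which are restricted to these cells. Of this set, 8 were followed here in MDSCs treated with or without EGCG: Pf4, Ppbp, Itga2b, Itgb3, Gp1ba, Gp1bb, Gp9 and Treml1. They were selected by gene symbol, with earlier results of these data known, and each matched 1 of the 53465 genes listed in the count table. MDSCs (myeloid-derived suppressor cells) are immature myeloid cells that expand when a tumor grows, and EGCG is a catechin of green tea. All 4 libraries were made from spleen cells of male BALB/c mice that carried subcutaneous 4T1 tumors, a transplantable mammary carcinoma line; the mice were 6 weeks old when the tumor cells were injected, and the cells were captured with beads against Gr-1 (Ly-6G/Ly-6C). The labels place the collection on day 21 of tumor growth, whereas the study's methods give 2 weeks for the sorted cells. The control group (2 libraries) received medium only, and the EGCG treatment group (2 libraries) received 5 μg/mL EGCG, both for 6 h in culture. It is not given whether replicate libraries represent separate mice or separate wells, so p values measure the spread between these libraries, which may be technical.

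Megakaryocytes reside in bone marrow and, in mice, also in the spleen, and platelets carry mRNA that they inherit from them. Platelets bind damaged vessel walls through the GPIb-IX receptor, aggregate through the fibrinogen receptor αIIbβ3, and release chemokines from their α-granules. Platelets also attach to neutrophils and monocytes. In bulk RNA, fewer cells of a type and less RNA per cell cannot be told apart.

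The libraries held between 17767318 and 18390385 counts on genes. Of the listed genes, 14682 had enough counts to be tested, and all 8 platelet genes were among them. The labelled cell type was checked against neutrophil and monocyte markers: the summed level of 8 neutrophil genes, S100a8 and S100a9 among them, was between 48860 and 68180 CPM (the normalised read count, scaled to library size with TMM factors), and that of 4 monocyte genes between 841.4 and 899.1 CPM. The 8 platelet genes together had between 162.9 and 189.5 CPM. The replicates of each group differed by more than sampling noise, with a chi-square of 6.25 per gene between the control libraries and 6.07 between the EGCG libraries.

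All 8 transcripts were detected in every library, and apart from Itgb3 and Itga2b they had at most 102 counts in a library. Differential expression was tested in edgeR (quasi-likelihood), and p values were adjusted over all tested genes by Benjamini-Hochberg, with a threshold of 0.05. By this test, 0 of the 8 genes passed; 0.15% of all tested genes passed, 0.136% as lower and 0.0136% as higher. At an unadjusted p under 0.05, Itga2b and Itgb3 were lower with EGCG, where 7.02% of all tested genes were lower and 5.22% higher at that level. DESeq2 also called 0 of the 8, although it gave no adjusted p for 6 of them, and 1 gene, Itgb3, had an unadjusted p under 0.05 in it. The log2 fold change (EGCG against control) was below 0 for all 8 genes, compared with 49.4% of all tested genes, and its median was -0.17, compared with 0.0031 over all tested genes. Without control replicate 2 this median was -0.0021, and 4 of the 8 genes (Pf4, Ppbp, Gp1bb and Gp9) were above 0. EGCG libraries lay apart from control libraries for 2 of the 8 genes, Itgb3 and Itga2b, compared with 42.7% of all tested genes.

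**Figure D1:**
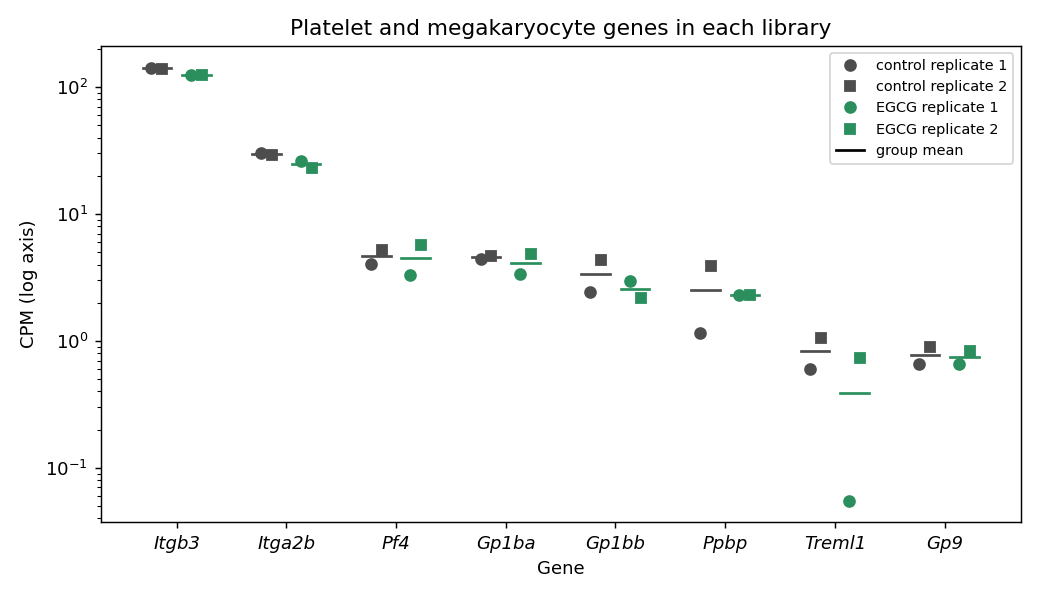
CPM of the 8 platelet and megakaryocyte genes on a log axis, 1 point per library (circles replicate 1, squares replicate 2; gray control, green EGCG) with the mean of each group as a line. Itgb3 (124.0 to 142.6 CPM) and Itga2b (23.1 to 30.4 CPM) stand well above the other 6 genes, and EGCG replicate 1 has the lowest point of Treml1 (0.0552 CPM).

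The regions in front of 4 of the genes are shown because the genes are used by the same cell lineage and differ in level, and because Pf4 and Ppbp are direct neighbors. Each is the stretch directly upstream of the RefSeq transcription start (GRCm38.p6), 5′ to 3′ on the strand of the gene, which is the plus strand for all 4. Capitals mark the letters of a GATA factor motif (AGATAA or TGATAA) or of an ETS factor motif (AGGAAG or CGGAAG) on either strand. GATA and ETS factors are known regulators of megakaryocyte genes.
Pf4, chr5:90772185-90772434: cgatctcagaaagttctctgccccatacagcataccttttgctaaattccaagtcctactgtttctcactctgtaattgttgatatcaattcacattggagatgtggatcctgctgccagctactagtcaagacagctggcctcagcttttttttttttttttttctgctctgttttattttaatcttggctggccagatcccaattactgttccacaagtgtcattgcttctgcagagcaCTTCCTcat
Ppbp, chr5:90768268-90768517: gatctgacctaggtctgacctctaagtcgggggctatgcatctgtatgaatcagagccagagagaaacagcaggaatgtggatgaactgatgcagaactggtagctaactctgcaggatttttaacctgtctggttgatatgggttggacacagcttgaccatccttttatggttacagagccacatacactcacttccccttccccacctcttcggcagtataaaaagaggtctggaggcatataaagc
Gp1ba, chr11:70638872-70639121: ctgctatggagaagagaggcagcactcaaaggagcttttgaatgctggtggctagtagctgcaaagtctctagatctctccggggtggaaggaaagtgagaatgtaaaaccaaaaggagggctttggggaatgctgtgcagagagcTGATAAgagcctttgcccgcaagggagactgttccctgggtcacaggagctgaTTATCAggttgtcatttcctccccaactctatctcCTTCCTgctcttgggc
Gp9, chr6:87777820-87778069: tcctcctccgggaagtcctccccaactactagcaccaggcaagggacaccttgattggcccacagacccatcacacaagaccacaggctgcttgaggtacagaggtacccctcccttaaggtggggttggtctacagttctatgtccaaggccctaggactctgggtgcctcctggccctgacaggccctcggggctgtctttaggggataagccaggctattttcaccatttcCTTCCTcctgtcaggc
Gp1ba was the only gene with GATA letters, which begin 104 and 51 bases before its start, among the 7 genes with such a window in the table, and 16.6% of the 32851 windows of all genes hold them. ETS letters were present in 5 of the 7 windows (Pf4, Itga2b, Gp1ba, Gp1bb and Gp9), compared with 39.2% of all windows. They begin 9 bases before the start in Pf4 and 16 bases before it in both Gp1ba and Gp9. Ppbp had neither motif in its window. These are matches of letters and not measured binding.

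Pf4 and Ppbp encode the chemokines that platelets store in their α-granules: Pf4 encodes platelet factor 4 (CXCL4), and Ppbp the precursor of the neutrophil-attracting chemokine CXCL7. Pf4 (ENSMUSG00000029373) lies at chr5:90772435-90773383 of GRCm38 and Ppbp (ENSMUSG00000029372) at chr5:90768518-90770063, both on the plus strand, with 2371 bases and no annotated gene between them. Pf4 had 74 and 93 counts without EGCG and 60 and 102 counts with it. EGCG replicate 1 was the lowest and EGCG replicate 2 the highest of the 4, so that the control libraries lay within the range of the EGCG libraries. Its level was 4.63 ± 0.814 CPM (SD, n = 2) without EGCG and 4.51 ± 1.70 CPM (SD, n = 2) with it. Pf4 had a log2 fold change of -0.04 (standard error 0.25, 95% interval from -0.58 to 0.50), with an adjusted p of 0.972 from edgeR. Counting error alone would give a standard error of 0.16 on this scale. Without EGCG replicate 1 the log2 fold change was 0.31, and without EGCG replicate 2 it was -0.48.

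Ppbp had 21 and 69 counts without EGCG and 42 and 41 counts with it. Both EGCG libraries lay between the control libraries, whose CPM differed 3.36-fold, and the exact Poisson 95% intervals of the control counts, which cover counting error only, did not overlap (13 to 32.1 and 53.7 to 87.3). The level of Ppbp was 2.51 ± 1.92 CPM (SD, n = 2) without EGCG and 2.31 ± 0.0148 CPM (SD, n = 2) with it. Its log2 fold change was -0.11 (standard error 0.40, 95% interval from -0.98 to 0.75; adjusted p of 0.943 from edgeR), and it turned to 1.00 without control replicate 2 and to -0.74 without control replicate 1. The share of Pf4 in the joint counts of these neighboring genes varied between replicates. It was 77.9% in control replicate 1 (Wilson 95% interval from 68.6% to 85.1%, covering counting error only) and 57.4% in control replicate 2 (49.7% to 64.8%). In the EGCG libraries the share was 58.8% (49.1% to 67.9%) and 71.3% (63.4% to 78.1%). The range of the EGCG libraries lay within that of the control libraries.

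Itga2b and Itgb3 encode the αIIb and β3 chains of the platelet fibrinogen receptor. The αIIb chain is largely restricted to the megakaryocyte lineage, whereas β3 also pairs with the αv chain in other cells, macrophages and endothelial cells among them. Itga2b (ENSMUSG00000034664) lies at chr11:102453297-102470122 on the minus strand and had 555 and 524 counts without EGCG and 474 and 413 counts with it. Both EGCG libraries were below both control libraries, a separation in this direction that 21.2% of all tested genes showed. The level of Itga2b was 29.9 ± 0.758 CPM (SD, n = 2) without EGCG and 24.6 ± 2.14 CPM (SD, n = 2) with it, and the log2 fold change was -0.28 (standard error 0.10, 95% interval from -0.50 to -0.06). The unadjusted p was 0.0175 and the adjusted p 0.306 by edgeR. Over 10 other settings of filter, scaling and test, the adjusted p of Itga2b ran from 0.198 to 0.713, and with a library left out its log2 fold change stayed between -0.37 and -0.19. Leaving out control replicate 1 gave Itga2b an unadjusted p of 0.0640, and leaving out EGCG replicate 2 gave 0.172.

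Itgb3 (ENSMUSG00000020689) lies at chr11:104608000-104670476 on the plus strand and was the most abundant of the 8 genes, with 2604 and 2503 counts without EGCG and 2249 and 2215 counts with it. The replicates of each group were close to each other, and both EGCG libraries were again below both control libraries. Itgb3 was at 141.3 ± 1.80 CPM (SD, n = 2) without EGCG and 124.0 ± 0.0182 CPM (SD, n = 2) with it. Its log2 fold change was -0.19 (standard error 0.07, 95% interval from -0.34 to -0.03), with an unadjusted p of 0.0210 and an adjusted p of 0.324 by edgeR. The adjusted p of Itgb3 ran from 0.196 to 0.713 over the same 10 settings, and its log2 fold change from -0.20 to -0.17 with a library left out. The unadjusted p of Itgb3 was 0.0827 with a length correction, and between 0.0413 (without control replicate 2) and 0.0807 (without EGCG replicate 1) with a library left out.

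Per kilobase of exon, Itgb3 exceeded Itga2b 4.34-fold and 4.42-fold without EGCG and 4.39-fold and 4.96-fold with it. The level of β3 transcripts per length was above that of αIIb in every library. Itgav, which encodes the αv partner of β3, had 1243 and 1179 counts without EGCG and 937 and 1148 counts with it. Per kilobase, Itgb3 exceeded Itgav 3.81-fold and 3.87-fold without EGCG and 4.37-fold and 3.51-fold with it. Itgav had a log2 fold change of -0.21 (standard error 0.10, 95% interval from -0.42 to 0.0033; adjusted p of 0.415 from edgeR). Among the signaling genes that act on this integrin, Fermt3 (kindlin-3), which is shared by leukocytes, had a log2 fold change of 0.0038 (standard error 0.07).

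The lower values of Itga2b and Itgb3 came with lower values of macrophage and endothelial markers. All 6 macrophage markers (Adgre1, Vcam1, C1qa, C1qb, C1qc and Cd5l) had log2 fold changes below 0, with a median of -0.25, and their summed level was 359.8 and 365.4 CPM without EGCG and 287.6 and 302.3 CPM with it. The 5 endothelial markers (Cdh5, Kdr, Tek, Stab2 and Egfl7) had a median of -0.75, and their sum was 20.3 and 20.7 CPM without EGCG and 10.3 and 14.8 CPM with it. None of these markers was at 0 in all libraries, and 0 of the 11 had an adjusted p under 0.05 in edgeR, while 6 were lower at an unadjusted p under 0.05, as were 7.02% of all tested genes. The summed monocyte list was also lower in both EGCG libraries (842.6 and 841.4 CPM) than in both control libraries (899.1 and 880.8 CPM), although the 4 markers had a median of -0.03, with 1 above 0 and 0 at an unadjusted p under 0.05. The T and NK cell list went the other way, with 81.2 and 92.3 CPM without EGCG and 94.1 and 96.9 CPM with it. Of its 3 tested markers, 3 were above 0 and 0 had an unadjusted p under 0.05 in edgeR. Of 4 B cell markers, 3 were above 0, with overlapping sums (303.0 and 321.2 CPM without EGCG, 349.4 and 315.1 CPM with it). Of 8 neutrophil markers, 5 were above 0, with overlapping sums (48860 and 59540 CPM without EGCG, 68180 and 58370 CPM with it). The basophil and mast cell list had 2 of 4 markers above 0. Its sums overlapped (126.6 and 149.7 CPM without EGCG, 144.8 and 136.0 CPM with it). The B cell, neutrophil, and basophil and mast cell lists each had 1 marker that was higher at an unadjusted p under 0.05 in edgeR. The part of any of these cell types in the values of Itgb3 and Itga2b was not tested. The erythroid list, marking the lineage that shares a progenitor with megakaryocytes, had a sum of 164.5 and 208.1 CPM without EGCG and 190.9 and 215.7 CPM with it, so that the groups overlapped. Of its 7 tested markers, 5 were above 0 and 2 below, with a median of 0.11. At an unadjusted p under 0.05 in edgeR, 1 of them was lower and 1 higher.

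Gp1ba, Gp1bb and Gp9 encode chains of the GPIb-IX receptor, which captures von Willebrand factor at high shear: Gp1ba encodes the ligand-binding α chain, Gp1bb the β chain and Gp9 the glycoprotein IX chain. Gp1ba (ENSMUSG00000050675, chr11:70639122-70642036, plus strand) had 81 and 84 counts without EGCG and 61 and 87 counts with it. The control libraries were close to each other and lay between the EGCG libraries. Its level was 4.57 ± 0.187 CPM (SD, n = 2) without EGCG and 4.12 ± 1.07 CPM (SD, n = 2) with it. For Gp1ba the log2 fold change was -0.15 (standard error 0.22, 95% interval from -0.63 to 0.33), with an adjusted p of 0.841 from edgeR, and it was 0.10 without EGCG replicate 1.

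Gp9 (ENSMUSG00000030054, chr6:87778072-87779768, plus strand) had 12 and 16 counts without EGCG and 12 and 15 counts with it. The level of Gp9 was 0.776 ± 0.168 CPM (SD, n = 2) without EGCG and 0.751 ± 0.126 CPM (SD, n = 2) with it, and the groups overlapped. The log2 fold change of -0.05 had a standard error of 0.44, of which counting error alone gives 0.39, and its 95% interval ran from -0.99 to 0.90 (adjusted p of 0.980 from edgeR). The interval spans both directions, so no direction can be given for Gp9. Gp1ba exceeded Gp9 per kilobase of exon 2.19-fold and 1.70-fold without EGCG and 1.65-fold and 1.88-fold with it.

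Gp1bb (ENSMUSG00000050761, chr16:18620317-18622403, minus strand) had 44 and 78 counts without EGCG and 54 and 39 counts with it. Control replicate 2 was the highest and EGCG replicate 2 the lowest, with the others between them, and the groups overlapped. The level of Gp1bb was 3.39 ± 1.38 CPM (SD, n = 2) without EGCG and 2.58 ± 0.562 CPM (SD, n = 2) with it. The log2 fold change was -0.39 (standard error 0.30, 95% interval from -1.03 to 0.25; adjusted p of 0.651 from edgeR), and it was 0.10 without control replicate 2. The counts of Gp1bb are uncertain, since 91.1% of its exonic bases also belong to exons of Sept5 on the same strand in GENCODE M21. In the same annotation, 41.5% also belong to exons of Gm49601, a protein-coding gene on that strand. Sept5, which encodes a septin, had 2395 and 2438 counts without EGCG and 2683 and 2771 counts with it, many times those of Gp1bb. Its log2 fold change was 0.18 (standard error 0.07; edgeR adjusted p of 0.355). How reads in the shared exons were assigned is not given in the sources used here. For the other 7 genes, at most 0.4% of the 31-base words of their transcripts also occur in transcripts of other genes.

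Treml1 encodes TLT-1, a receptor of the TREM family that is stored in platelet α-granules. Treml1 (ENSMUSG00000023993, chr17:48359916-48367176, plus strand) had 11 and 19 counts without EGCG and 1 and 13 counts with it. EGCG replicate 1 was the lowest, and EGCG replicate 2 lay between the control libraries. The exact Poisson 95% interval of the single count was 0.0253 to 5.57 (counting error only). It lay below the intervals of EGCG replicate 2 (6.92 to 22.2) and control replicate 2 (11.4 to 29.7). It overlapped that of control replicate 1 (5.49 to 19.7). The level of Treml1 was 0.833 ± 0.326 CPM (SD, n = 2) without EGCG and 0.392 ± 0.476 CPM (SD, n = 2) with it. Its log2 fold change was the most negative of the 8, at -1.08 (standard error 0.68, 95% interval from -2.53 to 0.37; adjusted p of 0.566 from edgeR). Without EGCG replicate 1 it was -0.19, and without EGCG replicate 2 it was -3.75 (adjusted p of 0.0894 in edgeR), where the EGCG value rests on a single count. The myeloid TREM genes were far more abundant: Trem1 was at 254.1 CPM, Trem3 at 216.3 CPM, Treml2 at 151.4 CPM and Treml4 at 57.4 CPM in the control group (means, n = 2), all 4 exceeding Treml1 also per kilobase. Their log2 fold changes were 0.13 for Trem1, 0.19 for Trem3, -0.10 for Treml2 and -0.0037 for Treml4, and 0 of the 4 passed the adjusted threshold in edgeR, while Trem3 had an unadjusted p of 0.0361.

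**Figure D2:**
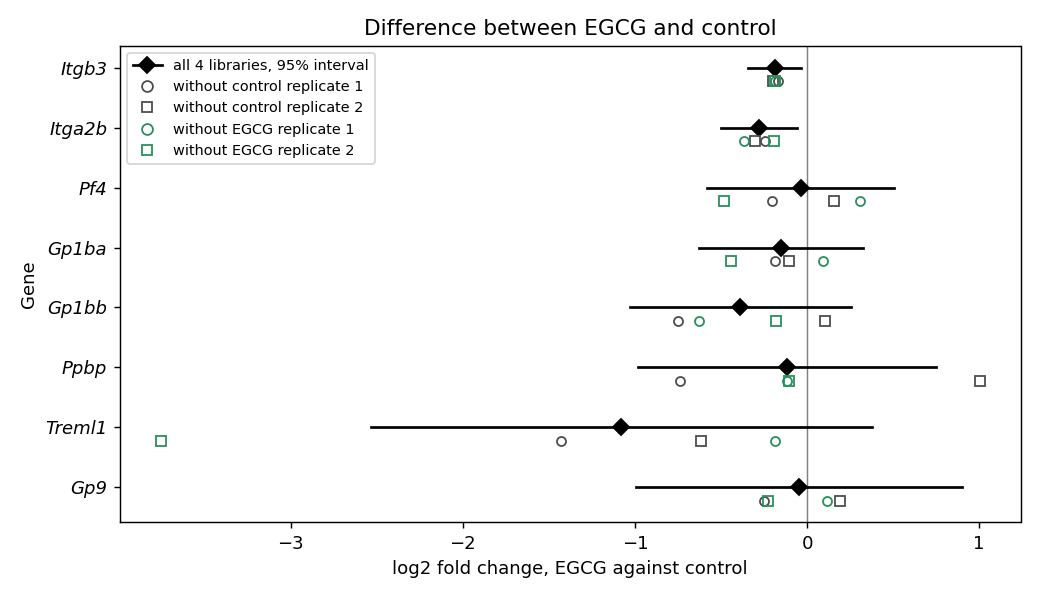
Log2 fold change of each gene (EGCG against control): diamonds and lines give the value and 95% interval from all 4 libraries, and open symbols the values with 1 library left out (circles replicate 1, squares replicate 2; gray a control library, green an EGCG library left out). The intervals of Itgb3 (-0.34 to -0.03) and Itga2b (-0.50 to -0.06) are the narrowest and lie below 0 before adjustment, and Treml1 reaches -3.75 without EGCG replicate 2.

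Ordered by level per kilobase of exon, the 8 genes followed the same order in both groups, in which the place of Gp1bb is uncertain, since its level is taken over all its exonic bases and most of them are shared with Sept5. In the control group the means were 23.9 CPM per kilobase for Itgb3, 6.42 for Pf4, 5.48 for Itga2b, 2.31 for Ppbp, 1.68 for Gp1ba, 1.62 for Gp1bb, 0.881 for Gp9 and 0.594 for Treml1. In the EGCG treatment group they were 21.0 for Itgb3, 6.26 for Pf4, 4.52 for Itga2b, 2.13 for Ppbp, 1.51 for Gp1ba, 1.24 for Gp1bb, 0.852 for Gp9 and 0.279 for Treml1 (CPM per kilobase). Itgb3 was above the other genes in each library. The neighbors Pf4 and Itga2b overlapped over the libraries (4.59 to 7.92 against 4.24 to 5.57 CPM per kilobase), as did Ppbp with Gp1ba, Gp1ba with Gp1bb, and Gp9 with Treml1. Among all tested genes with a length, the mean level per kilobase of Itgb3 was at percentile 83.7, that of Pf4 at 59.2, that of Itga2b at 54.2 and that of Treml1 at 11.8.

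The summed level of the 8 genes was 186.3 and 189.5 CPM without EGCG and 162.9 and 163.8 CPM with it, and 73.9% to 76.5% of these counts belonged to Itgb3. The log2 ratio of the group means was -0.20. An exact permutation test (two-sided) gave a p of 0.33, which is the smallest that 4 libraries in groups of 2 allow. Without Itgb3 and Itga2b, the other 6 genes summed to 13.3 and 20.1 CPM without EGCG and 12.7 and 16.6 CPM with it. Both groups then overlapped, with replicates further apart than the group means (16.7 ± 4.79 and 14.7 ± 2.79 CPM; SD, n = 2; exact permutation p of 0.667, two-sided). Itgb3 and Itga2b were left out after seeing that their groups lay apart, so this overlap was largely set by the choice. Of the 9838 tested genes with a mean of at least 5 CPM other than these, the 5 whose pattern over the 4 libraries was nearest to the sum of the 8 were Mgam, Rfx5, Maip1, Dock5 and Klf9. Their centered log2 CPM differed from that of the sum by at most 0.0090 (Mgam) to 0.018 (Klf9) in any library, and 142 genes were within 0.05.

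The receptors of the platelet chemokines and the genes around Pf4 and Ppbp were examined next. Cxcr2, the neutrophil receptor for the product of Ppbp, was at 1170 ± 82.1 CPM (SD, n = 2) without EGCG and 1163 CPM with it (log2 fold change of -0.0078, standard error 0.08). Cxcr3, a receptor linked to platelet factor 4, had 61 and 65 counts without EGCG and 85 and 82 counts with it. Its log2 fold change was 0.41 (standard error 0.21; edgeR adjusted p of 0.453). In the same chemokine cluster, Cxcl3 had a log2 fold change of -0.86 (standard error 0.18; adjusted p of 0.0826 from edgeR), with 172 and 203 counts without EGCG and 88 and 118 with it. Cxcl2 (-0.22, standard error 0.11) and Cxcl1 (-0.21, standard error 0.24) did not pass either. Cxcl5, with 14 counts without EGCG and 13 with it, and Cxcl15, with 1 count in all, were too low to be tested.

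Beyond the 8 genes, 37 further genes of platelets and megakaryocytes were listed by hand, and 33 of them could be tested. In the same edgeR fit, 0 of the 33 had an adjusted p under 0.05, 6 were lower and 0 higher with EGCG at an unadjusted p under 0.05 (7.02% and 5.22% of all tested genes), and DESeq2 called 1, Ptgs1. Of the 33, 23 had a log2 fold change below 0 and 10 above it, with a median of -0.14, where 49.4% of all tested genes were below 0. The list was divided by hand into genes that other cells also make and genes of a more restricted kind. The 23 tested genes of the first class had a median of -0.06, and the 10 of the second a median of -0.32. This division was not tested here, and restricted genes may still come from other cells. The summed level of the 14 restricted genes listed was 54.1 and 56.7 CPM without EGCG and 43.2 and 48.7 CPM with it. F2rl2 (23.7 CPM) and P2ry12 (10.7 CPM) had the highest control means of the 14.

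By role, the adhesion and collagen receptors were sparse. Clec1b, the platelet receptor for podoplanin, had 68 and 57 counts without EGCG and 46 and 57 counts with it, and its log2 fold change was -0.27 (standard error 0.24). Gp6, the collagen receptor of platelets, had 16 counts without EGCG and 5 with it, and Gp5, a further chain of the GPIb complex, had 15 and 28; neither was tested. Mmrn1, which encodes multimerin of the α-granule, had 23 and 15 counts and was also not tested. Of the agonist receptors, F2rl2 (PAR3) had 430 and 427 counts in the control libraries and fewer in both EGCG libraries, and the log2 fold change was -0.35 (standard error 0.10, unadjusted p of 0.00473, adjusted p of 0.218 by edgeR). P2ry12, the ADP receptor targeted by clopidogrel, had a log2 fold change of 0.04 (standard error 0.15). F2rl2 and P2ry12, at 9.48 and 4.19 CPM per kilobase in the control group, were the highest of the restricted genes.

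Of the enzymes and cytoskeletal genes, Ptgs1 (cyclooxygenase-1, which starts thromboxane synthesis in platelets and is also used by myeloid cells) was closest to the threshold. It was at 58.6 ± 4.49 CPM (SD, n = 2) without EGCG and 43.7 CPM with it, and the log2 fold change was -0.42 (standard error 0.09; adjusted p of 0.0769 by edgeR, and 0.0489 by DESeq2). Tubb1, the β1-tubulin of the platelet marginal band, had a log2 fold change of -0.46 (standard error 0.33), Mylk, myosin light chain kinase, -0.56 (0.22), and Gng11, a G protein subunit, 0.08 (0.50). Among granule proteins, Sparc had a log2 fold change of -0.68 (standard error 0.19; adjusted p of 0.188 by edgeR) and is also made by endothelial cells, whose markers were lower as given above. Vwf, von Willebrand factor, also a product of endothelial cells, had a log2 fold change of -0.49 (0.16; adjusted p of 0.258 by edgeR). Selp, which encodes P-selectin and is likewise made by endothelial cells, and Serpine2 had log2 fold changes of 0.23 (standard error 0.14) and 0.30 (0.21), the smallest unadjusted p values among the genes above 0. The part of endothelial cells in the values of Sparc, Vwf and Selp was not tested. Of the 9 transcription factor genes, 7 had log2 fold changes below 0, from -0.44 (Meis1) to -0.03 (Fli1), and 2, Gata1 and Nfe2, above it, with a median of -0.06 over the 9, and 0 had an unadjusted p under 0.05.

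**Figure D3:**
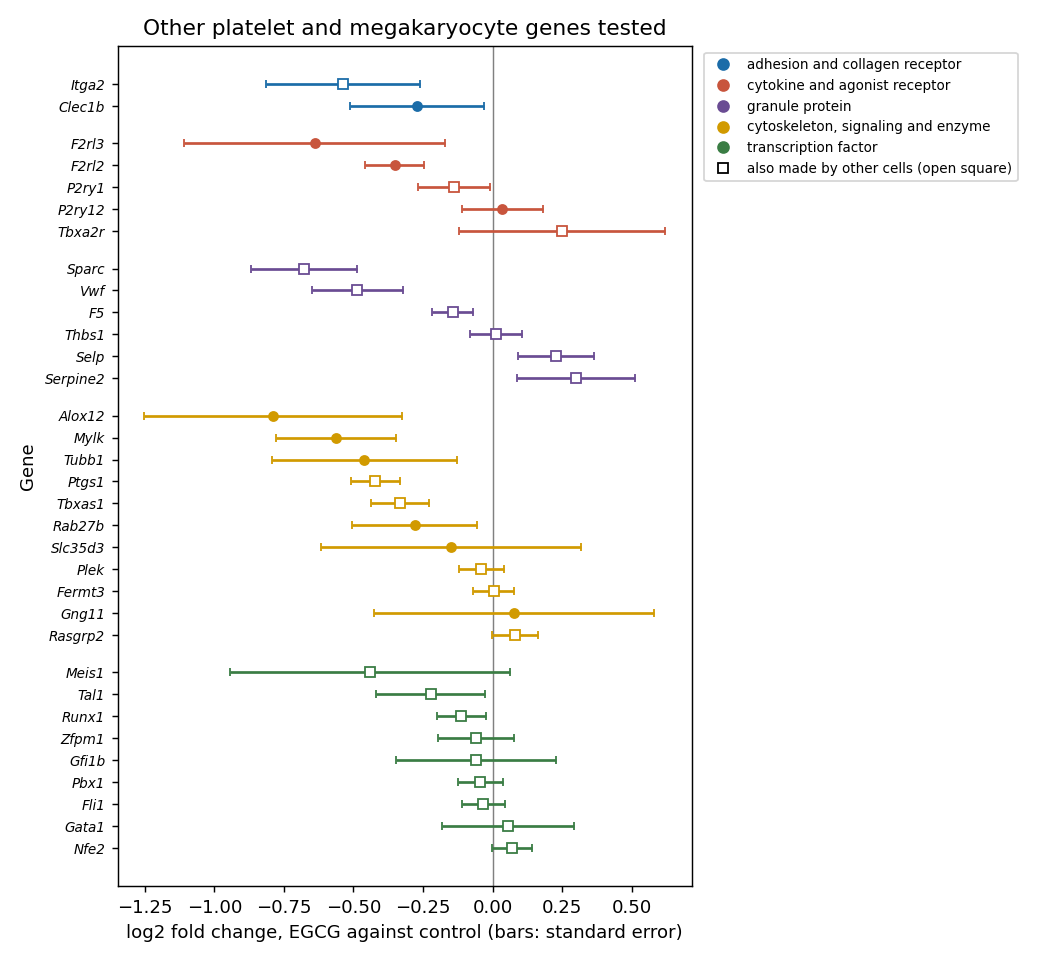
Log2 fold change (EGCG against control, bars are standard errors) of the 33 further platelet and megakaryocyte genes tested, colored by role. Open squares mark genes classed by hand as also made by other cells. The values run from -0.79 (Alox12) to 0.30 (Serpine2), and those of the transcription factors center near 0 (median of -0.06).

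**Figure D4:**
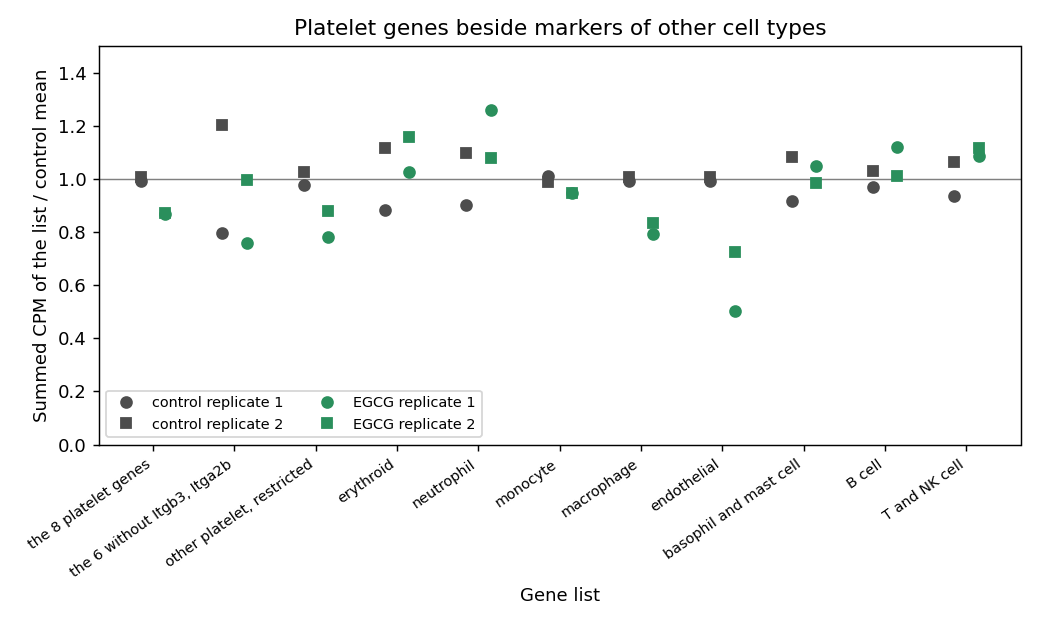
Summed CPM of each gene list in each library, divided by the mean of the control libraries (axis from 0; circles replicate 1, squares replicate 2; gray control, green EGCG). The 8 platelet genes, at 162.9 and 163.8 CPM with EGCG, and the restricted platelet, monocyte, macrophage and endothelial lists lie below their control libraries, whereas the 6 genes without Itgb3 and Itga2b and the erythroid list overlap between the groups.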

How the data were processed

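RNA-seq counts of 2 control and 2 EGCG libraries of spleen-sorted MDSCs were used. Reads were mapped by the authors with STAR 2.6.0c (GRCm38). They assigned them to genes of Ensembl release 91 with featureCounts 1.6.2 without regard to strand, and deposited whole-number counts, which were not normalized. The table held 0 columns of other samples and 0 rows without a gene name. Tool versions are those of the study's methods and the submitters' processing notes.

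From the deposited counts, genes were filtered with filterByExpr of edgeR 4.0.16 (minimum count of 10), scaled by TMM, and tested with the legacy quasi-likelihood fit on treatment alone, with Benjamini-Hochberg adjustment over 14682 genes. CPM use the TMM-scaled totals of the tested genes. A standard error is the log2 fold change divided by the square root of F, and 95% intervals use the degrees of freedom of the fit. Alternatives, including DESeq2 1.42.0, a length correction (loess, span of 0.4) and the replicate block, are given in the closing section. The fit was tested on simulated data. Positions, exonic lengths (union of exons) and shared 31-base words came from GENCODE M21 (GRCm38), a later annotation than that of the counts, and upstream sequences from RefSeq (GRCm38.p6), where 7 of the 8 genes matched. R 4.3.3, Python 3.11.15, pandas 2.3.3, SciPy 1.17.1 and matplotlib 3.10.9 were used.

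The genes named are the 8 platelet genes, their receptors and neighbors, the listed platelet genes with the highest level per kilobase (6 of the restricted kind) or the smallest unadjusted p (2 in each direction), and the 5 genes nearest in pattern (the smallest value of the largest distance in centered log2 CPM, prior count of 2). Fermt3, Alox12, Gata1, Nfe2, Meis1, Fli1, Vwf, Tbxas1, Sept5 and the genes too low to test were named after their values were seen. The members and lists were chosen with earlier results of these data known. Of the 4 genes of the further platelet list that were too low to test, 1 is not reported here, though the summed level includes it.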

Additional observations from a re-analysis of the deposited data

How the results depend on the processing

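Of 79 fold changes of the 8 genes under other filters, scalings, tests and corrections, 0 changed sign and 0 passed an adjusted p of 0.05; DESeq2 gave no adjusted p for 6 of the genes, and Treml1 had no value with at least 10 counts required in every library. With a library left out (a lone library is then assumed to vary like the other group), 7 of 32 changed sign and 0 passed. The log2 fold change then ran from -0.48 to 0.31 for Pf4, from -0.74 to 1.00 for Ppbp, from -0.44 to 0.10 for Gp1ba, from -0.75 to 0.10 for Gp1bb and from -0.25 to 0.19 for Gp9, whereas Itga2b, Itgb3 and Treml1 kept their sign. The median over the 8 genes then ran from -0.25 (without control replicate 1) to -0.0021 (without control replicate 2). The log2 ratio of the summed level was -0.24 with library size only, -0.24 without Itgb3 and -0.19 without Itgb3 and Itga2b, against -0.20; leaving out these genes was chosen after seeing the data. The sum has no length-corrected, blocked or model-based form.

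The count of all genes lower with EGCG was 20, and 9 with upper-quartile scaling, 135 with library size only, 49 with robust estimation, 50 with DESeq2 and 3 with the length correction. The count of higher genes was 2, and 4 with at least 10 counts in every library, 16 with library size only, 6 with the newer quasi-likelihood form, 14 with robust estimation and 14 with DESeq2. Without a filter 0 genes passed in either direction in edgeR, while 1018 lower and 777 higher genes had an unadjusted p under 0.05. With a library left out the counts ran from 72 to 235 lower and from 5 to 119 higher genes; the cause was not tested. Ptgs1 was the 1 gene of the further platelet list called with library size only, with robust estimation and with DESeq2, and with a library left out between 0 and 3 genes of that list were called. Without control replicate 2 these were Vwf, Sparc and Tbxas1, without EGCG replicate 2 Vwf and Sparc, and without control replicate 1 Ptgs1.

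The replicate numbers gave no sign of pairing (correlation of 0.0336 between deviations of the same number). With 2 libraries per group, this cannot settle whether libraries of the same number share an origin. A fit with the replicate block called 24 lower and 6 higher genes, and it called 0 of the 8 platelet genes (log2 fold changes of -0.28 for Itga2b and -0.19 for Itgb3). Among the 8 genes, the standard error from counting alone was largest for Treml1 (0.47) and Gp9 (0.39), with at most 19 counts in a library.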
